A study of Homo sapiens with 6 samples.

Results

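Collagen chains, laminin chains and 5 other basement membrane genes were examined in HMEC-1 cells after knockdown of SETD7. Members were the rows of the count table whose symbol is that of a collagen alpha chain (COL, a number, A, a number) or a laminin chain (LAMA, LAMB or LAMC with a digit), together with NID1, NID2, HSPG2, AGRN and PXDN. This gave 43 genes of 18544, namely 28 collagen chains, 10 laminin chains and the 5 others. The cells, an immortalised endothelial line from human dermal microvessels, were cultured in MCDB131 medium with 5.5 mM glucose and received a lentiviral shRNA in both groups. It was directed against SETD7, a lysine methyltransferase also called Set7, in the Set7KD group (n = 3) and was non-targeting in the NTC group (n = 3). The labels state neither the number of hairpin sequences nor whether each replicate was a transduction of its own, and every p-value below therefore reflects library-to-library spread that may be technical.

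Collagens are secreted proteins of 3 alpha chains wound into a helix. Fibrillar collagens (types I, II, III, V, XI, XXIV and XXVII) assemble into the fibres of interstitial tissue, whereas type IV collagen forms the sheet of the basement membrane, the thin matrix on which endothelial cells sit. Laminins are cross-shaped trimers of an alpha, a beta and a gamma chain that form a second sheet and bind cells. Nidogens and perlecan tie both sheets together, and peroxidasin cross-links type IV collagen. Endothelial basement membrane is known for laminins with the alpha 4 or the alpha 5 chain.

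Total gene counts were 16385878 to 16953331 per library, so 1 count was worth 0.0585 to 0.0618 CPM, the usual unit of counts scaled to library size, here after TMM normalization. A gene was called when its edgeR adjusted p, taken over 18482 genes, was under 0.05. SETD7 fell to 27.8, 43.8 and 26.7 CPM in Set7KD, against 180.5, 178 and 176 CPM in NTC. Of 10 endothelial markers with a row, 2 rose and 4 fell (60%, beside 36.2% of all genes tested), and their summed level was 412 to 451 CPM in Set7KD and 516 to 660.3 CPM in NTC. CDH5, the adhesion molecule of endothelial junctions, averaged 119 ± 11.4 CPM in Set7KD and 206 ± 32.1 CPM in NTC (SD, n = 3 each) and fell. TIE1 averaged 87.3 ± 3.48 CPM in Set7KD and 143.5 ± 6.74 CPM in NTC and also fell, as did ROBO4 and EGFL7. KDR, the main VEGF receptor, averaged 27.8 ± 3.39 CPM in Set7KD and 17.3 ± 3.63 CPM in NTC and rose, as did TEK, the angiopoietin receptor, with 58.8 ± 6.41 CPM in Set7KD and 45.1 ± 2.08 CPM in NTC. VWF, the clotting factor stored by endothelium, had 10.1 ± 0.65 CPM in Set7KD and 9.70 ± 2.25 CPM in NTC and did not pass, while the listed markers PECAM1 and CLDN5 had no row and were not analysed here.

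Of the 43 members, 10 rose and 13 fell in Set7KD, and 20 did not pass. That is 53.5% of the members, beside 36.2% of all genes tested (17.6% higher and 18.6% lower). For 14 members every Set7KD library was above every NTC library, and for 16 it was below (beside 23.3% and 24.1% of all genes tested, 47.4% in all). The median absolute log2 fold change was 0.48 among the members and 0.22 among all genes. Members that rose and members that fell stood in every class except the linkers and cross-linkers. There 0 rose by edgeR (also 0 at an unadjusted p under 0.05), 0 by DESeq2, 1 by limma-voom (NID2) and 2 with the replicate block (NID2 and HSPG2). With the replicate number as a block, 13 rose and 14 fell.

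**Figure D1:**
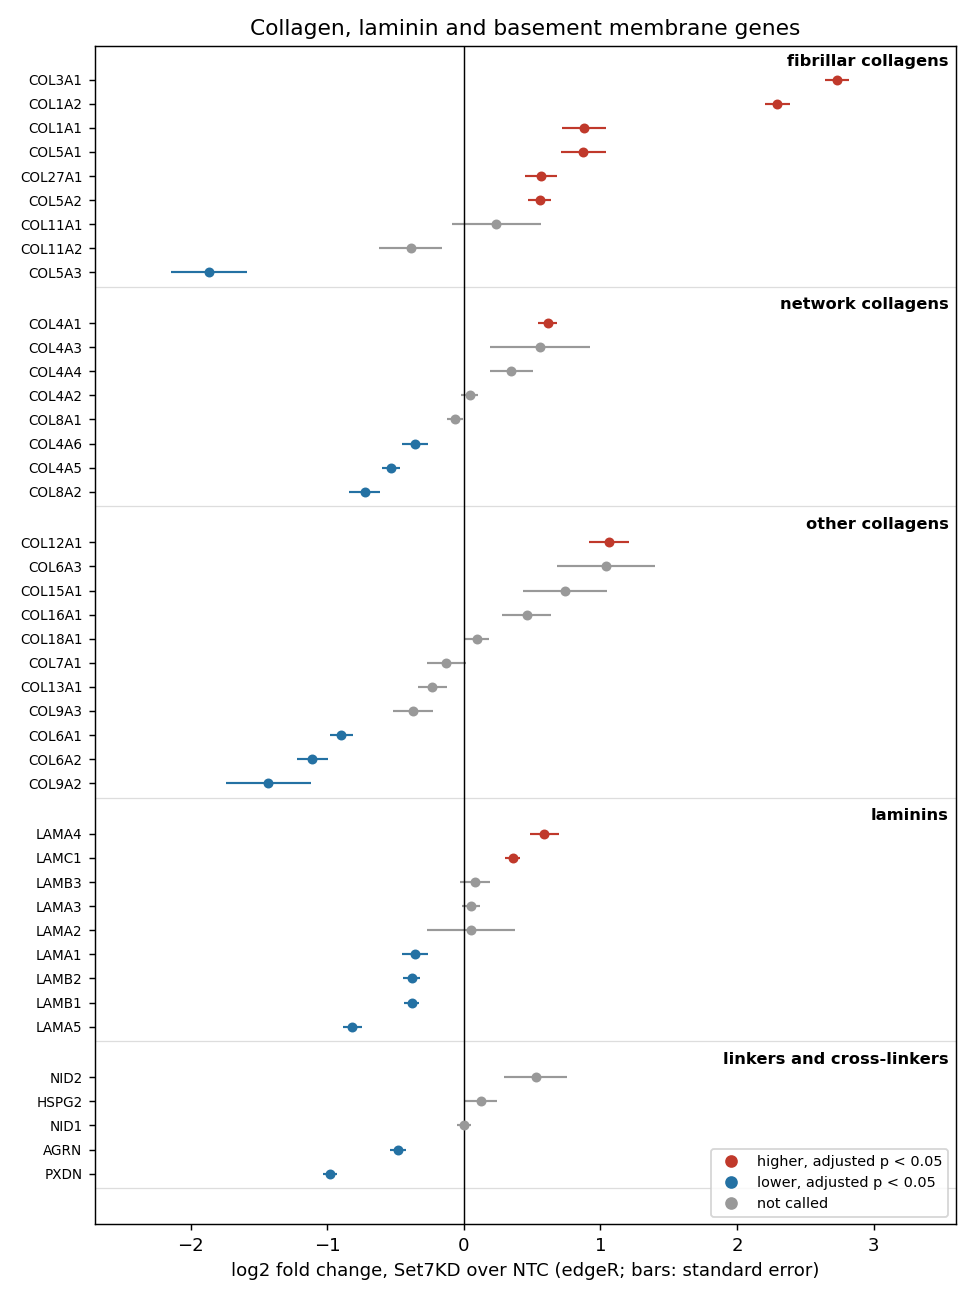
Log2 fold change of 42 of the 43 members, Set7KD over NTC, by class (points: edgeR estimate; bars: standard error; colour: call at an adjusted p under 0.05). The fibrillar collagens lie mostly to the right of 0, up to 2.74 for COL3A1, with COL5A3 at -1.87 as the exception that fell, and the other classes spread to both sides.

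Of the 9 fibrillar chains, 6 rose (COL1A1, COL1A2, COL3A1, COL5A1, COL5A2 and COL27A1), COL5A3 fell and COL11A1 and COL11A2 did not pass. That is 77.8% called, beside 36.2% of all genes tested. The median log2 fold change was 0.57, beside -0.01 over all genes tested. COL3A1 (ENSG00000168542.8), whose product forms type III fibres of vessel walls and other pliable tissue, had 94.0, 76.2 and 85.4 CPM in the Set7KD libraries, against 12.2, 13.7 and 12.5 CPM in the NTC libraries. The groups were far apart, with a log2 fold change of 2.74 ± 0.09 (standard error) and an edgeR adjusted p of 3.7e-11. COL1A2 (ENSG00000164692.13), the alpha 2 chain of type I collagen, had 809, 621 and 768 CPM in Set7KD, against 155, 144 and 149 CPM in NTC, a fold of 4.91. Its partner COL1A1 had 3145, 2411 and 3028 CPM in Set7KD, against 1555, 1284 and 1825 CPM in NTC. COL1A1 thus rose too, but by a smaller fold of 1.84 (log2 0.88 ± 0.16, edgeR adjusted p = 0.00912).

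Type V collagen, which sits in the core of type I fibrils and limits their width, split by chain. COL5A1 had 620.5, 452 and 603 CPM in Set7KD, against 320.0, 258.5 and 335 CPM in NTC. COL5A2 had 880.2, 763 and 835 CPM in Set7KD, against 568, 491 and 626 CPM in NTC. Both rose without overlap, by folds of 1.83 and 1.47 and with edgeR adjusted p of 0.0117 and 0.00039. COL5A3, the third chain, fell to 1.03, 1.36 and 0.55 CPM in Set7KD, against 3.92, 4.21 and 2.63 CPM in NTC, a log2 fold change of -1.87 ± 0.28 on counts of 9 to 70 per library. COL27A1, a fibrillar chain best known from cartilage, averaged 20.5 ± 2.31 CPM in Set7KD and 13.8 ± 2.04 CPM in NTC and rose. The type XI chains COL11A1 and COL11A2 stayed under 2 CPM in every library.

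**Figure D2:**
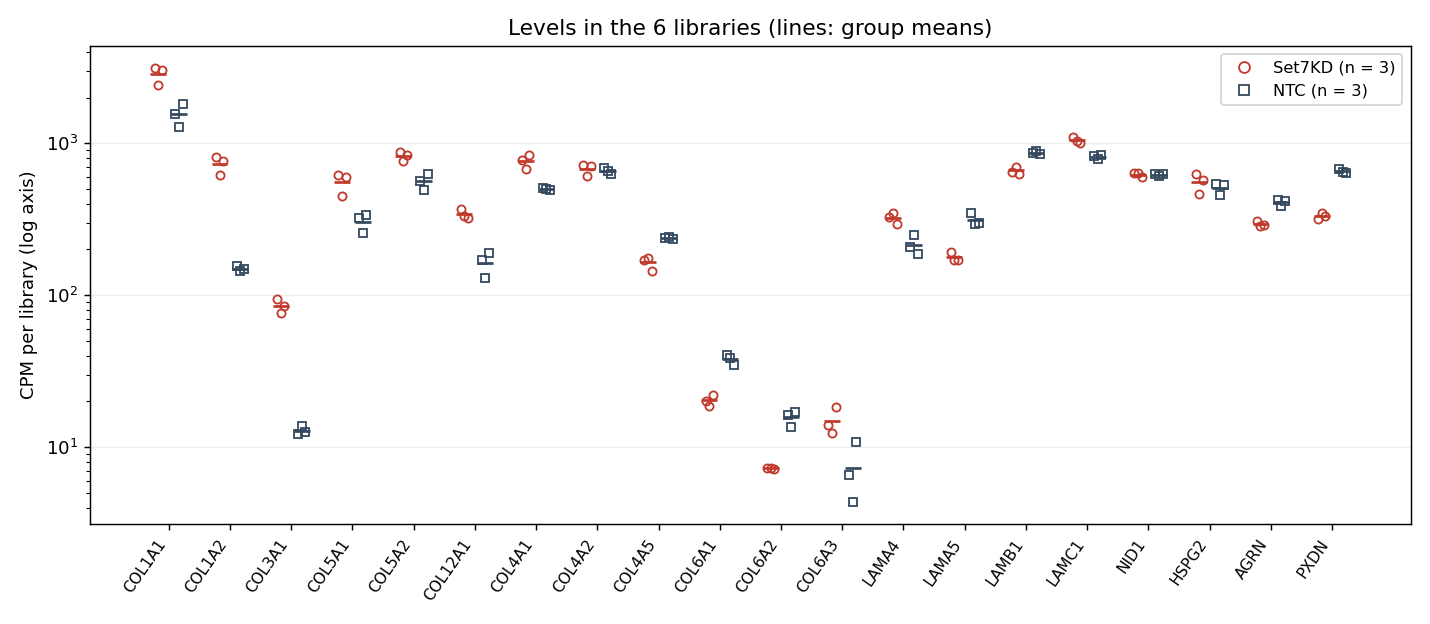
CPM of 20 members in each of the 6 libraries on a log axis (circles: Set7KD, n = 3; squares: NTC, n = 3; lines: group means). COL1A2 and COL3A1 show the widest gaps, with 621 against 155 CPM and 76.2 against 13.7 CPM between the lowest Set7KD and the highest NTC library, while COL4A2, NID1 and HSPG2 overlap.

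For 4 of the 6 fibrillar chains that rose, replicate 2 was the lowest library of both groups. The same held for 14 of the 43 members (32.6%), beside 16.4% of all genes tested. Deviations shared by libraries with the same number are what the replicate block removes, and with it the edgeR adjusted p of COL1A1 was 1.34e-08 and that of COL5A1 1.75e-09. Their calls did not change.

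Network-forming collagens moved in both directions. Of 8 chains, COL4A1 rose, COL4A5, COL4A6 and COL8A2 fell, and COL4A2, COL4A3, COL4A4 and COL8A1 did not pass, with a median log2 fold change of -0.01. That is 50% called, beside 36.2% of all genes tested. COL4A1 (ENSG00000187498.9), which supplies 2 of the 3 chains of the common type IV trimer, had 780.4, 673 and 837 CPM in Set7KD, against 508, 498 and 490.1 CPM in NTC, a log2 fold change of 0.61 ± 0.07 and an edgeR adjusted p of 1.14e-05. COL4A2, which supplies the remaining chain, had 715, 609 and 706.5 CPM in Set7KD, against 692, 653 and 628 CPM in NTC. The 2 groups overlapped for COL4A2, and its log2 fold change was 0.04 ± 0.07 (edgeR adjusted p = 0.651), with -0.01 to 0.11 when libraries were left out.

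COL4A1 and COL4A2 lie next to each other on chromosome 13 and are transcribed away from each other from a shared promoter. The 126 bases between their RefSeq start sites (GRCh38.p14, plus strand, chr13:110307158-110307283) are shown because the chains of this pair, which start so close together, differed in their response. Capitals mark CCAAT, the box bound by NF-Y, and GGGCGG, the GC box bound by SP1, searched on both strands.
COL4A1-COL4A2: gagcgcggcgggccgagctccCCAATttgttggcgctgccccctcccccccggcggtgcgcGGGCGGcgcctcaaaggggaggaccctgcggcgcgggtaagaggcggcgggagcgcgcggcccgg
This stretch holds 1 CCAAT box, 1 GC box and no TATAAA, and 80.2% of its bases are G or C. A short antisense transcript, COL4A2-AS1, overlaps 0.6% of the exon bases of COL4A2 and had 15.9 ± 3.21 CPM in Set7KD and 14.4 ± 0.87 CPM in NTC. The counting is not stated to use strand, so reads of the overlap cannot be assigned.

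COL4A5 and COL4A6, whose chains are found in minor type IV trimers, also lie head to head, on chromosome X, and both fell. COL4A5 had 171, 177 and 145 CPM in Set7KD, against 237, 242.0 and 234 CPM in NTC (log2 fold change -0.53 ± 0.07, edgeR adjusted p = 2.33e-05). COL4A6 had 16.9, 17.1 and 15.1 CPM in Set7KD, against 20.6, 19.3 and 22.9 CPM in NTC (log2 fold change -0.36 ± 0.09, edgeR adjusted p = 0.00828). No library of one group overlapped the other for either gene. The call of COL4A6 was lost without both replicate 1 libraries (edgeR adjusted p = 0.0731) and without both replicate 3 libraries (0.137). Tested against a fold of 1.2, COL4A6 did not pass either (edgeR adjusted p = 0.261). The 120 bases before each start, given in the direction of transcription, are shown for contrast with the pair on chromosome 13.
COL4A5 (chrX:108439718-108439837, plus strand): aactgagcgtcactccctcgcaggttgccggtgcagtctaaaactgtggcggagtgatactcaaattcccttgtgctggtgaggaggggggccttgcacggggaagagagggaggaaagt
COL4A6 (chrX:108439459-108439578, minus strand): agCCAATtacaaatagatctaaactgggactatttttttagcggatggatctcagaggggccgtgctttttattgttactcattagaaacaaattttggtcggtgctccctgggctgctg
Within these 120 bases COL4A6 holds 1 CCAAT box and COL4A5 none of the 3 words. In the longer promoters, 250 bases before to 50 after the start, CCAAT numbered 2 in COL4A5 and 3 in COL4A6. These 2 promoters overlap in part, so a match in the shared bases counts for both genes. GGGCGG and TATAAA had no match in either promoter. G and C make up 42.5% of the COL4A6 stretch of 120 bases and 57.5% of that of COL4A5.

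COL4A3 and COL4A4, type IV chains known from kidney, were scarce. COL4A4 had 4.84 ± 0.51 CPM in Set7KD and 3.80 ± 0.48 CPM in NTC, and COL4A3 0.82 ± 0.12 CPM in Set7KD and 0.55 ± 0.26 CPM in NTC. Neither passed. Type VIII collagen, a short-chain network collagen of vessel walls and of the membrane under the corneal endothelium, gave 529, 495 and 477 CPM of COL8A1 in Set7KD, against 534, 547 and 486 CPM in NTC. COL8A1 did not pass (log2 fold change -0.06 ± 0.06), whereas COL8A2, its partner chain, had 8.23, 7.85 and 9.06 CPM in Set7KD, against 15.2, 13.1 and 13.3 CPM in NTC, and fell (edgeR adjusted p = 0.000121).

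Among the 11 remaining collagens 1 rose, 3 fell and 7 did not pass. That is 36.4% called, near the 36.2% of all genes tested. COL12A1, a collagen that coats type I fibrils, rose to 371, 333 and 321 CPM in Set7KD, against 169.8, 130.3 and 190.3 CPM in NTC, a fold of 2.09 with an edgeR adjusted p of 0.00298. Type VI collagen, which forms beaded microfibrils around cells, divided by chain. COL6A1 had 20.2, 18.7 and 22.1 CPM in Set7KD, against 40.4, 38.4 and 34.8 CPM in NTC. COL6A2, its neighbour on chromosome 21, had 7.26, 7.29 and 7.23 CPM in Set7KD, against 16.4, 13.6 and 17.03 CPM in NTC. COL6A1 and COL6A2 fell by 0.90 and 1.11 on the log2 scale, at edgeR adjusted p of 1.57e-06 and 3.47e-06. COL6A3, on chromosome 2, was on the other side, with 13.98, 12.4 and 18.4 CPM in Set7KD, against 6.55, 4.33 and 10.8 CPM in NTC. The groups did not overlap, but the libraries within a group were spread, and the log2 fold change of 1.04 ± 0.36 did not pass (edgeR adjusted p = 0.0786). COL6A3 passed with the replicate block (adjusted p = 1.2e-05), with DESeq2 (0.0408) and with limma-voom (0.00473). By edgeR it also passed without NTC replicate 2 (0.0459) and without NTC replicate 3 (0.000321). The same held without both replicate 2 libraries (0.0369) and without both replicate 3 libraries (7.42e-05). In 11 of 18 alternatives it did not pass.

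COL9A2, a collagen bound to fibrils in cartilage, fell on low counts (0.75 ± 0.30 CPM in Set7KD and 2.04 ± 0.53 CPM in NTC). COL9A3 of the same type had 6.26 ± 1.24 CPM in Set7KD and 8.11 ± 0.54 CPM in NTC and did not pass (edgeR adjusted p = 0.0575), but did with the replicate block (0.0447) and without Set7KD replicate 1 (0.0496). COL18A1, a basement membrane collagen whose end piece is endostatin, had 188, 147 and 188 CPM in Set7KD, against 170.2, 157 and 161 CPM in NTC. It did not pass; the lowest Set7KD library was below every NTC library, and without that library, Set7KD replicate 2, the log2 fold change went to 0.21 and the edgeR adjusted p to 0.00774. COL15A1, its close relative, stayed under 1 CPM. COL13A1, a collagen anchored in the cell membrane, had 14.1 ± 0.71 CPM in Set7KD and 16.5 ± 2.12 CPM in NTC (edgeR adjusted p = 0.103, and 0.0463 without NTC replicate 2). COL7A1, which forms anchoring fibrils under skin epithelium, had 11.3 ± 1.43 CPM in Set7KD and 12.3 ± 2.43 CPM in NTC, and COL16A1 3.37 ± 0.33 CPM in Set7KD and 2.44 ± 0.31 CPM in NTC.

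Laminin chains changed in both directions. Of 10 chains, LAMA4 and LAMC1 rose, LAMA1, LAMA5, LAMB1 and LAMB2 fell, and 4, LAMA2, LAMA3 and LAMB3 among them, did not pass. That is 60% called, beside 36.2% of all genes tested. Log2 fold changes ran from -0.82 to 0.59, with a median of -0.11. The 2 alpha chains of endothelium moved apart. LAMA4 had 326, 345 and 292 CPM in Set7KD, against 206, 248 and 187 CPM in NTC (log2 fold change 0.59 ± 0.11, edgeR adjusted p = 0.0033). LAMA5 had 192.5, 171 and 172 CPM in Set7KD, against 347, 294 and 300.0 CPM in NTC (log2 fold change -0.82 ± 0.07, edgeR adjusted p = 1e-06). Counts of LAMA4, not scaled to transcript length, were above those of LAMA5 in every Set7KD library and below them in every NTC library.

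The beta 1 and gamma 1 chains, which go into most laminins, also parted. LAMB1 had 652, 703 and 632 CPM in Set7KD, against 857, 884 and 847 CPM in NTC. LAMC1 had 1095, 1033 and 1011 CPM in Set7KD, against 819.7, 793 and 837 CPM in NTC. LAMB1 fell and LAMC1 rose without overlap, at log2 fold changes of -0.38 and 0.36 and edgeR adjusted p of 8.21e-05 and 0.000119. LAMB2, the beta chain that can take the place of beta 1, had 239, 202 and 229.6 CPM in Set7KD, against 309, 283 and 282 CPM in NTC and fell by as much as LAMB1. These 3 changes are small: tested against a fold of 1.2 they did not pass, with edgeR adjusted p of 0.0513 for LAMB1, 0.08 for LAMB2 and 0.0931 for LAMC1.

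The 120 bases before the starts of the endothelial alpha chains and of the beta 1 and gamma 1 chains (RefSeq, GRCh38.p14, direction of transcription) are shown because partners of 1 trimer moved in opposite directions; capitals mark GGGCGG on either strand.
LAMA4 (chr6:112254568-112254687, minus strand): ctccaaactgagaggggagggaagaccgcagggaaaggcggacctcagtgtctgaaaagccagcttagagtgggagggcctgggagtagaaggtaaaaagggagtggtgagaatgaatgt
LAMA5 (chr20:62367313-62367432, minus strand): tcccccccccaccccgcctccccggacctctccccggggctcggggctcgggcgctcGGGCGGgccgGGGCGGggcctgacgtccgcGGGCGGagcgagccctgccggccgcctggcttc
LAMB1 (chr7:108003162-108003281, minus strand): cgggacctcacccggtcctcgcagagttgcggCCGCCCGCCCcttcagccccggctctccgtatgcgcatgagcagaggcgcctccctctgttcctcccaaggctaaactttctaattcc
LAMC1 (chr1:183023300-183023419, plus strand): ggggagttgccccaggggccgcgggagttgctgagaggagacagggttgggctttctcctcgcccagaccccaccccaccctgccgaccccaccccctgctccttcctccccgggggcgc
GC boxes numbered 3 in LAMA5 and 2, overlapping, in LAMB1, and no match was found in these windows of LAMA4 and LAMC1. In the promoters of 250 bases before to 50 after the start, GGGCGG numbered 3 in LAMC1 and 0 in LAMA4, which rose, and 5 in LAMA5 and 4 in LAMB1, which fell. G and C made up 54.2% of the LAMA4 stretch, 85.0% of LAMA5, 65.0% of LAMB1 and 73.3% of LAMC1. CCAAT and TATAAA had no match in any of the 4.

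LAMA3 and LAMB3, chains known from epithelial basement membrane, did not pass. LAMA3 had 64.6 ± 3.92 CPM in Set7KD and 62.2 ± 3.36 CPM in NTC, and LAMB3 9.59 ± 0.44 CPM in Set7KD and 9.07 ± 0.52 CPM in NTC. LAMA1, an alpha chain of early embryonic basement membrane, fell to 19.8, 25.2 and 21.1 CPM in Set7KD, against 26.6, 27.4 and 30.8 CPM in NTC (edgeR adjusted p = 0.00889), a call that was lost without Set7KD replicate 1 (0.0681), without both replicate 1 libraries (0.0953) and without both replicate 3 libraries (0.116). Tested against a fold of 1.2, LAMA1 did not pass either (edgeR adjusted p = 0.258). LAMA2, the alpha chain of muscle, was at 0.86 ± 0.06 CPM in Set7KD and 0.82 ± 0.30 CPM in NTC.

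Of the 5 linking and cross-linking proteins, PXDN and AGRN fell (40% called, beside 36.2% of all genes tested). PXDN (ENSG00000130508.6), or peroxidasin, the enzyme that forms sulfilimine bonds between type IV collagen trimers, had 318, 347 and 332 CPM in Set7KD, against 674, 648 and 641 CPM in NTC. Its log2 fold change of -0.98 ± 0.05 had an edgeR adjusted p of 1.75e-08 and was -1.02 to -0.93 when libraries were left out. AGRN, the heparan sulfate proteoglycan agrin, had 308, 284 and 288 CPM in Set7KD, against 426, 385 and 417.5 CPM in NTC, with an edgeR adjusted p of 1.21e-05. NID1, the nidogen that bridges laminin and type IV collagen, had 638, 633 and 597 CPM in Set7KD, against 632, 612 and 623 CPM in NTC, a log2 fold change of 0.00 ± 0.05.

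HSPG2, the gene for perlecan, had 626, 462 and 577 CPM in Set7KD, against 541, 458.0 and 529.9 CPM in NTC and did not pass (edgeR adjusted p = 0.461). It passed with the replicate block (adjusted p = 0.0455) at a log2 fold change of 0.12, and without Set7KD replicate 2 (0.0217) at 0.24. NID2, the second nidogen, had 58.8, 44.7 and 61.9 CPM in Set7KD, against 39.9, 28.2 and 46.6 CPM in NTC. The groups overlapped and NID2 did not pass (edgeR adjusted p = 0.153), but within each replicate number the Set7KD library was the higher, and the adjusted p with the block was 6.86e-06. In GENCODE 29, 21.6% of the exon bases of NID2 overlap a gene on the opposite strand, listed as C14orf166 in the table, which rose (144 ± 3.63 CPM in Set7KD and 118 ± 1.89 CPM in NTC). Its part in the NID2 values was not tested. For HSPG2 the overlap was 11.6%, with LDLRAD2, which was not called.

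The proportions of chains were then compared within libraries, a measure that needs no scaling between libraries. Of 19 count ratios of partner or related chains, 8 were higher and 6 lower in Set7KD without overlap, and 5 overlapped. Each of the 14 had p = 0.1 in an exact two-sided permutation test, the smallest that 3 libraries against 3 allow (0.136 after Benjamini-Hochberg adjustment over the 19). Among single genes, 47.4% of all tested did not overlap, and the share among other gene pairs was not computed. A ratio of chains called in opposite directions restates those calls. COL1A1 counts were 3.89, 3.88 and 3.94 times those of COL1A2 in Set7KD, against 10.02, 8.92 and 12.3 times in NTC. The Set7KD libraries were thus close to one another, although their COL1A1 levels differed. The ratio of COL4A1 to COL4A2 was 1.09, 1.105 and 1.18 in Set7KD, against 0.73, 0.76 and 0.78 in NTC. That of LAMA4 to LAMA5 was 1.69, 2.02 and 1.70 in Set7KD, against 0.59, 0.84 and 0.62 in NTC. LAMB1 stood at 0.60, 0.68 and 0.63 of LAMC1 in Set7KD, against 1.04, 1.12 and 1.01 in NTC. PXDN stood at 0.41, 0.52 and 0.40 of COL4A1 in Set7KD, against 1.33, 1.30 and 1.31 in NTC. Where both chains of a pair fell, 3 ratios overlapped: the mean log2 ratio of LAMB2 to LAMB1 was -1.57 ± 0.20 in Set7KD and -1.57 ± 0.09 in NTC (SD, n = 3 each), and that of COL6A1 to COL6A2 was 1.48 ± 0.13 in Set7KD and 1.27 ± 0.23 in NTC. COL4A5 to COL4A6 was the other.

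**Figure D3:**
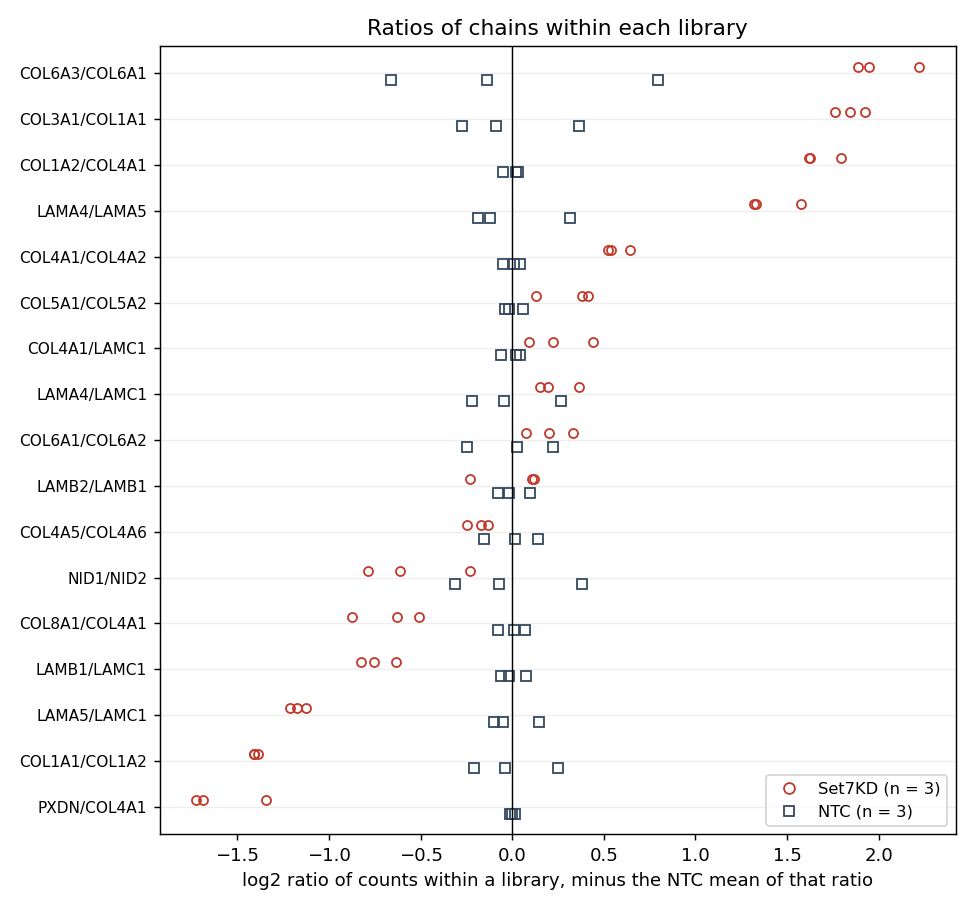
Log2 ratio of the counts of 2 chains in each library for 17 of the 19 ratios, set to 0 at the NTC mean of that ratio (circles: Set7KD, n = 3; squares: NTC, n = 3). The ratio of COL6A3 to COL6A1 lies farthest to the right, with a difference of 2.02, and that of PXDN to COL4A1 farthest to the left, at -1.59.

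Set side by side, the classes differed in direction and size. Summed over a class, fibrillar collagens had 5575, 4345 and 5341 CPM in Set7KD, against 2633, 2211 and 2965 CPM in NTC, which is 1.95 times the NTC mean. Network collagens had 2226, 1984 and 2195 CPM in Set7KD, against 2010.0, 1977 and 1880.0 CPM in NTC, with overlap. Other collagens had 639.5, 554 and 591 CPM in Set7KD, against 447, 380.4 and 459 CPM in NTC. Without COL12A1 the 10 others summed to 253 ± 27.5 CPM in Set7KD and 265.5 ± 13.99 CPM in NTC, with overlap. Laminins had 2610.0, 2561 and 2437 CPM in Set7KD, against 2646, 2606 and 2570.0 CPM in NTC. The summed laminin level thus overlapped between the groups and was 0.97 times the NTC mean, although 6 of its 10 chains were called. The summed level of linkers and cross-linkers was lower, at 1949, 1772 and 1855 CPM in Set7KD, against 2313, 2131 and 2258 CPM in NTC. PXDN alone averaged 332 CPM in Set7KD and 654.5 CPM in NTC, whereas NID1, NID2 and HSPG2 were not called. The sum without PXDN was not computed. Fibrillar chains made up 66.1, 63.1 and 65.7% of all collagen CPM in Set7KD, against 51.7, 48.4 and 55.9% in NTC. Neither the shares nor the sums were scaled to transcript length. These sums were not tested, since the members were chosen with results known, and COL1A1 supplies the largest part of the fibrillar counts in every library. Without COL1A1 the fibrillar sum was 2226 ± 259 CPM in Set7KD and 1048 ± 109.5 CPM in NTC.

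**Figure D4:**
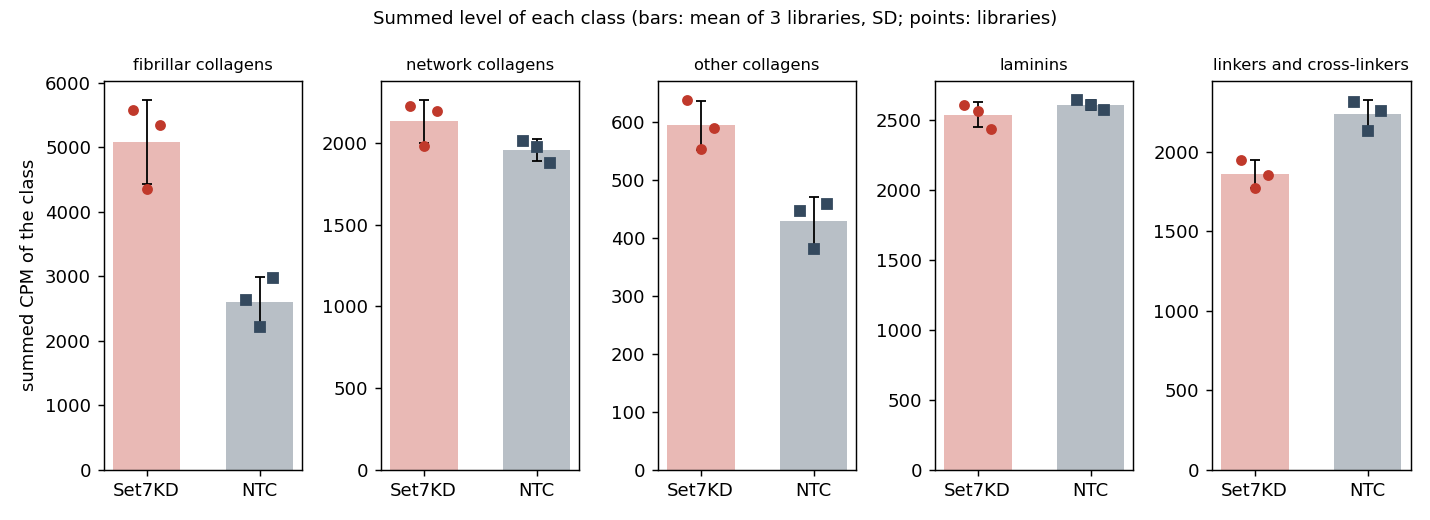
Summed CPM of each class (bars: mean of 3 libraries; error bars: SD; points: libraries; Set7KD left, NTC right; axes start at 0 and differ between panels). The fibrillar sum is 5087 ± 653 CPM in Set7KD and 2603 ± 378 CPM in NTC, whereas the laminin sum is 2536 ± 89.5 CPM in Set7KD and 2607 ± 38.1 CPM in NTC.

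Single genes were ranked by CPM per kilobase of the GENCODE 29 transcript with the longest coding sequence. COL1A1 was the highest member in both groups, with a mean of 425 CPM per kilobase in Set7KD and 231 in NTC. Behind it in Set7KD came COL1A2 at 135, LAMC1 at 133, COL5A2 at 117, COL4A1 at 115 and LAMB1 at 115 CPM per kilobase. In NTC the order was LAMB1 at 149.6, NID1 at 106, LAMC1 at 104 and COL4A2 at 101 CPM per kilobase, with COL1A2 at 27.6. Neighbours within these lists lie close together, and their order was not tested. The most abundant alpha chain of the laminins per kilobase was LAMA4, at 49.0 in Set7KD and 32.6 in NTC, with LAMA5 at 15.6 in Set7KD and 27.5 in NTC.

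**Figure D5:**
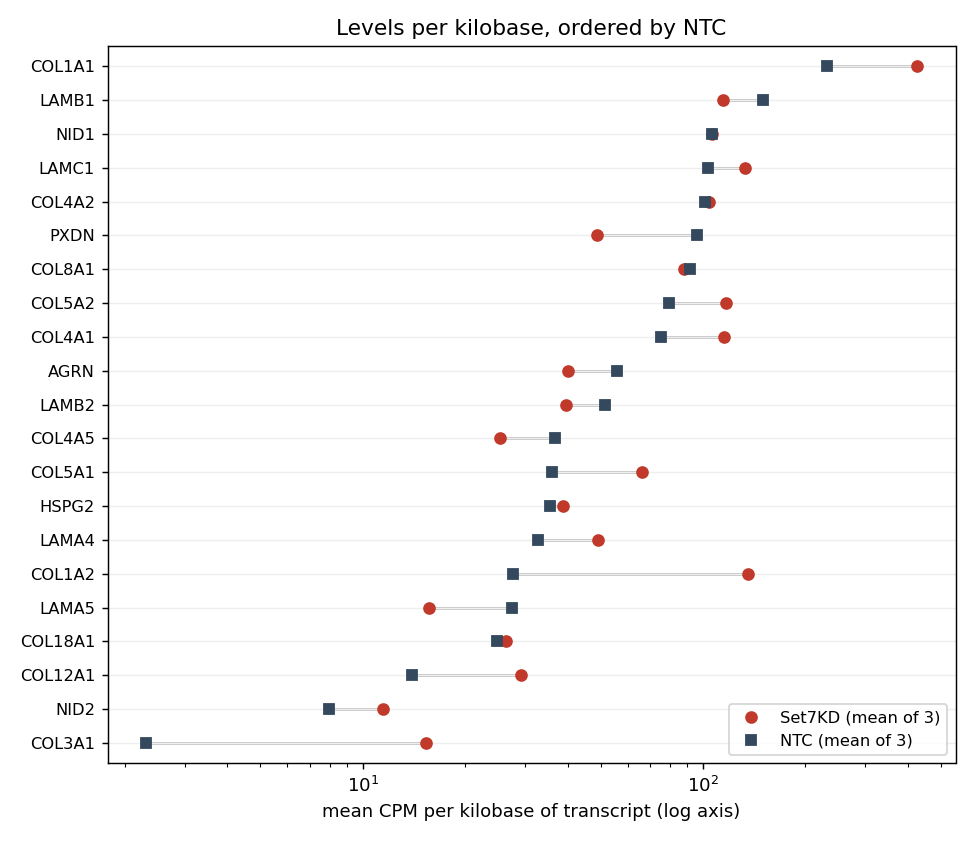
Mean CPM per kilobase of transcript on a log axis for the 21 members that reach 10 in either group, in the order of NTC (circles: Set7KD; squares: NTC; each a mean of 3 libraries). COL1A1 is highest in both groups, and COL1A2 and COL3A1 have the longest lines between groups.

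The members differ from most genes in exon structure, which bears on how they were counted. The helix of fibrillar collagens is encoded by many short exons, and the median exon was 54.0 bases long in the 9 fibrillar chains, 148.5 bases in the 10 laminins and 142 bases in 13077 protein-coding genes of the table. Exons under 100 bases held a median of 36.3% of the transcript in fibrillar chains and 5.05% in laminins. BWA, the aligner named in the submitters' processing notes, does not place a read across a splice junction, so reads of short exons can be lost. Levels of fibrillar chains can thus be understated relative to laminins, while a comparison of 1 gene between groups shares its exons. The size of this loss was not tested. Transcripts of the 10 members that rose had a median GC content of 53.5%, those of the 13 that fell 61.7% and those of the 20 others 54.2%.

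RefSeq promoters of 250 bases before to 50 after the start were matched for 33 members. Those of COL4A1 and COL4A2 overlap in part, as do those of COL4A5 and COL4A6, and each was counted. The same words as above (the CCAAT box, the GC box GGGCGG and the TATA box TATAAA) were searched on both strands, with overlapping matches counted. GGGCGG stood in 25 of the 33 (75.8%), beside 44.6% of 27305 RefSeq promoters, in 5 of 6 members that rose and in 8 of 10 that fell. Those 27305 promoters were not limited to the genes tested here. CCAAT stood in 9 (27.3%, beside 35.7%) and TATAAA in 3 (9.09%, beside 12%). The members' promoters were richer in G and C than the median promoter (69.0 against 58.3%). COL1A1, COL1A2, COL3A1, COL5A2 and COL6A1 were among the members with no entry.

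Genes that modify and cross-link collagen chains rose more often than they fell: of 26 tested, 14 rose and 1 fell (57.7%, beside 36.2% of all genes tested, 17.6% higher and 18.6% lower), with a median log2 fold change of 0.28, beside -0.01 over all genes tested. ADAMTS3, a protease that trims procollagen, averaged 19.1 ± 1.03 CPM in Set7KD and 8.11 ± 0.58 CPM in NTC. P4HA2, a subunit of prolyl hydroxylase, averaged 174.6 ± 10.9 CPM in Set7KD and 106 ± 5.16 CPM in NTC. P4HA1, another such subunit, averaged 88.3 ± 1.28 CPM in Set7KD and 66.5 ± 0.76 CPM in NTC. LEPREL1, a prolyl 3-hydroxylase, averaged 161 ± 12.5 CPM in Set7KD and 122 ± 5.72 CPM in NTC. All 4 rose without overlap. LOX, which cross-links fibrillar collagen, averaged 137 ± 18.4 CPM in Set7KD and 70.5 ± 10.7 CPM in NTC and rose, while CRTAP, a partner of the prolyl 3-hydroxylases, fell to 157 ± 6.99 CPM in Set7KD, against 174.0 ± 5.92 CPM in NTC; both are named after their values were seen. PLOD2, a lysyl hydroxylase, averaged 573 ± 45.2 CPM in Set7KD and 523 ± 20.7 CPM in NTC and did not pass.

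Receptors of these proteins split. Of 13, 4 rose (ITGA1, ITGA11, ITGB1 and DAG1) and 4 fell (ITGA3, ITGB4, DDR1 and BCAM), which is 61.5% beside the same 36.2%, with a median log2 fold change of -0.19. ITGA11, the alpha subunit of a receptor for fibrillar collagen, averaged 95.6 ± 11.5 CPM in Set7KD and 44.8 ± 1.92 CPM in NTC. BCAM, a receptor that binds the laminin alpha 5 chain, averaged 42.1 ± 4.62 CPM in Set7KD and 69.7 ± 5.20 CPM in NTC. ITGB4, the beta subunit of a laminin receptor, averaged 33.7 ± 4.20 CPM in Set7KD and 72.0 ± 7.05 CPM in NTC. Of 9 other basement membrane proteins with a row, 3 rose (SPARC, TINAGL1 and HMCN1) and 2 fell (SMOC1 and NTN4), or 55.6% beside 36.2%. SPARC, a collagen-binding protein, averaged 2005 ± 80.3 CPM in Set7KD and 1181 ± 49.4 CPM in NTC.

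Markers of other cell types were read beside the fibrillar collagens. Of 10 fibroblast markers that are not collagens, 4 had a row and 1 (PDGFRA) rose (25%, beside 36.2% of all genes tested); their summed level was 118 to 125 CPM in Set7KD and 104.5 to 123 CPM in NTC, with overlap, and DCN, FAP, DPT, PRRX1, TCF21 and MFAP5 had no row. Of 10 smooth muscle markers, 9 had a row and 4 rose (CNN1, TAGLN, LMOD1 and NOTCH3), or 44.4%. The summed level of the 9 was 779 to 1079 CPM in Set7KD and 401 to 453 CPM in NTC. TAGLN alone had 607, 418 and 629 CPM in Set7KD, against 106, 106 and 76.9 CPM in NTC. MYH11, the smooth muscle myosin, averaged 9.54 ± 0.72 CPM in Set7KD and 10.6 ± 1.58 CPM in NTC and did not pass. ACTA2 averaged 43.9 ± 3.82 CPM in Set7KD and 38.2 ± 4.58 CPM in NTC, and like SMTN, RGS5 and CSPG4 it did not pass. Of 10 epithelial markers, only EPCAM and KRT17 had a row, and KRT17, the 1 tested, fell; they had a summed level of 1.35 to 1.61 CPM in Set7KD and 2.11 to 2.52 CPM in NTC. Fewer or more cells of a type and less or more RNA per cell cannot be told apart in these bulk libraries. Any part of the rise of CNN1, TAGLN, LMOD1 and NOTCH3 in the collagen values was not tested.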

How the data were processed

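Poly-A RNA of 6 HMEC-1 libraries was sequenced (RNeasy extraction, Dynabead selection and an Illumina mRNA-seq kit, per the labels). The authors deposited raw read counts per gene, made with BWA and bedtools on hg19 per the submitters' processing notes; strand use and the handling of reads with several matches are not given in the sources used here. Every gene with a row had at least 60 counts summed over the 6 libraries, so a missing row need not mean that no read was counted. A final row for reads outside genes, 55.6 to 56.1% of each library's counts, was left out of library sizes and tests. Within a group, pairs of libraries had chi-square values of 2.98 to 9.85 per degree of freedom, above sampling noise.

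Counts were analysed with edgeR 4.0.16 in R 4.3.3 (filterByExpr, TMM, robust glmQLFit, glmQLFTest, group as the single factor), with Benjamini-Hochberg adjustment over 18482 genes; the script was tested on simulated data. All 43 members passed the filter; the values of 1 of them are not reported here, though counts and sums over members include it. The standard error is the absolute log2 fold change over the square root of F. Chain ratios used counts plus 0.5. Other settings tried were RLE and upper-quartile scaling, no filter, a filter at 50 counts, the replicate number as a block, DESeq2 1.42.0, limma-voom (limma 3.58.1), a test against a fold of 1.2, a threshold of 0.01 and leaving libraries out. Over 11151 genes averaging 10 CPM or more, same-numbered libraries had correlated deviations from their group means (r of 0.3, 0.42 and 0.34), over the limit of 0.1 set for pairing; the pairing comes from the data and no label states it.

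Members and gene lists were chosen with earlier results of these data known. Members with a mean of at least 5 CPM in either group are named with their values and the rest more briefly. Up to 4 called genes of each other list are given with values, and LOX and CRTAP besides. Other called genes of those lists are named without values or only counted. Transcript models came from GENCODE 29 for all 43 members and promoters from RefSeq (GRCh38.p14), so no coordinates of the count table are given. Analyses in Python 3.11.15 used pandas 2.3.3.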

Additional observations from a re-analysis of the deposited data

How the results depend on the processing

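Of the 10 members that rose, 8 kept their call in all 18 alternatives, and of the 13 that fell, 9 kept theirs in every alternative that tested them, which for COL5A3 and COL9A2 were 17, since the filter at 50 counts removed both. The exceptions were COL5A1 and LAMC1 among the first and COL4A6, LAMA1, LAMB1 and LAMB2 among the second. With the replicate block 2 other collagens (COL12A1 and COL6A3) and 2 linkers (NID2 and HSPG2) were higher, and COL9A3 joined those that fell; it changed no other call of a member. With DESeq2 and with limma-voom the same 2 other collagens were higher. They also numbered 2 with a filter at 50 counts, but there COL16A1 (edgeR adjusted p = 0.0394) stood in place of COL6A3 (0.0572). With that filter members called lower numbered 11 and fibrillar collagens called lower numbered 0. With limma-voom 1 linker was higher. Against a fold of 1.2, 903 genes were higher and 1314 lower in all, with 1 laminin higher (LAMA4) and 1 lower (LAMA5); at an adjusted p under 0.01 the counts over all genes were 2103 and 2197, and COL5A1 (0.0117) was lost. With 1 library or both libraries of a replicate number left out, all genes called higher numbered 1414 to 3214 and lower 1562 to 3303, the lowest without replicate 1, other collagens called higher 1 to 3 and linkers called higher 0 to 2. Log2 fold changes that crossed 0 in these settings were those of uncalled members: NID1 (-0.0235 to 0.0452), LAMA2 (-0.21 to 0.26), COL11A1 (-0.00565 to 0.64), LAMA3 (-0.00423 to 0.14), COL4A2 (-0.00794 to 0.11) and COL7A1 (-0.29 to 0.0123). The difference in the log2 ratio of LAMB2 to LAMB1 ran from -0.0642 to 0.0753. The cause of these changes was not tested. The 5 members under 2 CPM in every library rest on 5 to 32 counts each, which limits their precision.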
